A study of Homo sapiens with 8 samples.

Results

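The proteasome genes of SKBR3 cells were compared between control cells and cells in which the transcription factor FOXA1 had been knocked down. A gene was a member when its symbol in the deposited table was PSM, a letter from A to G and a number, which took 46 of the 30434 genes listed. SKBR3 is a human breast cancer cell line with an amplified ERBB2 (HER2) gene, and the study asked what FOXA1 does to HER2-related pathways. The 4 control libraries came from SKBR3 cells whose genotype is labelled WT, and the labels name no control vector. The 4 knockdown libraries came from SKBR3 cells labelled FOXA1 knockdown, a stable line made with commercial lentiviruses that carried 3 individual short hairpin RNAs against the FOXA1 messenger RNA. Both were grown in DMEM with fetal bovine serum. The labels do not say whether the 4 libraries of a group came from separate cultures, so p-values measure only the spread between these libraries, which may be technical. The line was made once as far as the labels state, and what the transduction itself did cannot be told apart from what loss of FOXA1 did.

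The proteasome is the protease complex that degrades proteins tagged with ubiquitin. Its 20S core is a barrel of alpha rings, which form the gate, and beta rings, which hold the proteolytic sites of PSMB5 (chymotrypsin-like), PSMB6 (caspase-like) and PSMB7 (trypsin-like). In the immunoproteasome these are replaced by PSMB8, PSMB9 and PSMB10, which are known to be induced by interferon and to favour peptides that load onto MHC class I molecules. The 19S cap recognises and unfolds the substrate with a ring of ATPases (PSMC genes) and a set of non-ATPase subunits (PSMD genes). Other caps are the PA28 activators (PSME1 with PSME2, and PSME3) and PA200 (PSME4), while PSMF1 is an inhibitor and the PSMG proteins with PSMD5, PSMD9 and PSMD10 help to assemble the particle. The transcription factor NFE2L1 is known to raise the constitutive subunits together when proteasome activity falls.

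Promoter sequence is shown for the members that rose most (PSMB9, PSMB8 and PSMB10). It is also shown for TAP1, the peptide transporter gene that lies head to head with PSMB9. PSME2, which carries the same element as PSMB10 but was called lower, is included, as is PSMD5, which fell most. The PSME2 call depended on how the libraries were scaled, as given below. The sequences are RefSeq's on GRCh38.p14, read 5′ to 3′ on the strand of the gene. Capitals mark every match, on either strand, to 5 motifs: the paired GAAA element GAAANNGAAA of interferon-regulated promoters, the GAS element TTCNNNGAA of interferon gamma responses, the antioxidant response element core TGACNNNGC, the CCAAT box and the forkhead motif TGTTTAC. The stretch of PSMB8 is chr6:32844048-32844135 (minus strand), directly before one of its 2 RefSeq starts, in an exon of a PSMB8 transcript with a retained intron, and overlaps the antisense gene PSMB8-AS1. That of PSMB9 is chr6:32853979-32854160 (plus strand), between the RefSeq starts of TAP1 and PSMB9, which are 487 bases apart. Of its 182 bases 13 are annotated as exon (GENCODE 29), and the rest is intron of a longer PSMB9 transcript. For PSMB10 (chr16:67936852-67936881, minus strand), TAP1 (chr6:32853816-32853845, minus strand) and PSME2 (chr14:24146619-24146648, minus strand) only 30 bases around the match are shown, since annotated first exons cover these places. That of PSMD5 is chr9:120842985-120843172 (minus strand), of which 177 of 188 bases are exon of the opposite-strand gene CUTALP.
PSMB8: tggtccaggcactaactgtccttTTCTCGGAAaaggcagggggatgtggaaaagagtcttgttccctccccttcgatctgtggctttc
PSMB9: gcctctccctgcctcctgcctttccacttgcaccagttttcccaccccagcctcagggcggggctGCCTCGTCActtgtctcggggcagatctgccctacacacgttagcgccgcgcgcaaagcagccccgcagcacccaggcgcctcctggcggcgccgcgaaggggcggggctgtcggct
PSMB10: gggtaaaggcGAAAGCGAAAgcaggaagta
TAP1: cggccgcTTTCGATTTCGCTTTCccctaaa
PSME2: cctggggagtGAAAGCGAAAgcccgggcga
PSMD5: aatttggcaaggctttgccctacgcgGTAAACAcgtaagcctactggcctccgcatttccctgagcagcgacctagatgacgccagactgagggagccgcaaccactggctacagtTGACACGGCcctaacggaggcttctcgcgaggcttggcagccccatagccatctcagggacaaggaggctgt

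In these letters PSMB10 and PSME2 held the same 10 bases, 21 and 28 bases before their starts. TAP1 held a pair of overlapping matches on the opposite strand, and PSMB8 held the GAS match 65 bases before this start. Over the 250 bases before each start, the paired GAAA element stood in 5 of 49 member promoters (10.2%, in PSMA4, PSMB4, PSMB10, PSME2 and PSMG4) and in 3.02% of all 35116 promoters. The GAS element stood in 6 of 49 (12.2%, in PSMA2, PSMB5, PSMB8, PSMC4, PSMD3 and PSME3) against 6.57% of all. The CCAAT box stood in 18 of 49 (36.7%) against 32% of all. The antioxidant response element core stood in 13 of 49 (26.5%) against 10.9% of all. The forkhead motif stood in 2 of 49 (4.08%, PSMB2 and PSMD5) against 2.98% of all. These counts are descriptions of 40 members with a promoter entry, and a match is not a binding site. Of the 5 genes with a paired GAAA element, PSMB10, PSMB4 and PSMG4 were called higher, PSME2 was called lower and PSMA4 did not pass the test. Of the 6 with a GAS element, PSMB8, PSMC4, PSMD3 and PSME3 were called higher, PSMB5 was called lower and PSMA2 did not pass. The calls of PSMG4, PSME2, PSMD3, PSME3 and PSMB5 were each lost in some of the alternative analyses given below. PSMB9, which rose most, held neither of these elements in its 250 bases. The paired GAAA matches printed for TAP1 lie between the RefSeq starts of TAP1 and PSMB9, farther from the PSMB9 start than those 250 bases. Of the forkhead pair, PSMB2 rose (log2 fold change 0.35) and PSMD5 fell by 0.96 on the log2 scale.

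Library totals ran from 19087878 to 23786684 counts. FOXA1, the targeted gene, had between 4071 and 4397 counts in the control libraries and between 83 and 92 in the knockdown libraries, 2.07% of the control level. Levels are given as CPM, counts per 1000000 after scaling each library by edgeR's TMM factor (0.966 to 1.04), as mean ± SD over n = 4 libraries. The groups were compared with edgeR's quasi-likelihood test over all 16430 genes that passed a low-count filter, and a gene was called at an adjusted p under 0.05. All 8 markers of SKBR3 were present, and 4 rose and 4 fell. The amplified ERBB2 fell from 7308 ± 365 to 1340 ± 53.0 CPM, while the epithelial keratin KRT18 rose 1.495-fold. The second principal component (1.82% of the variance) separated control replicate 3 from the rest, and without that library the member counts were the same, 22 higher and 15 lower. In bulk RNA, fewer cells of a type and less RNA per cell cannot be told apart.

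All 46 members passed the filter, 22 rose, 15 fell and 9 were not called. Across all genes tested 77.1% were called, 39.4% as higher and 37.7% as lower, so most genes moved in this comparison. With libraries scaled by total counts alone, the split among members was 27 higher and 11 lower, against 22 and 15 with TMM. For members the median absolute log2 fold change was 0.33, against 0.51 for all tested genes and 0.45 for the 12420 with a mean of at least 50 counts. In 36 of 46 members the log2 fold change lay within 0.5 of 0. Only PSMB9 and PSMB8 passed with at least a 2-fold change, 2 of 46, where 28.3% of tested genes did, and no member fell by that much. The median log2 fold change was 0.06 for members and 0.02 for all genes tested. CPM did not overlap between the groups in 33 members, and in 72.0% of genes tested. For each of those 33 the exact two-sided permutation p was 0.0286, the smallest that 4 libraries against 4 allow.

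**Figure D1:**
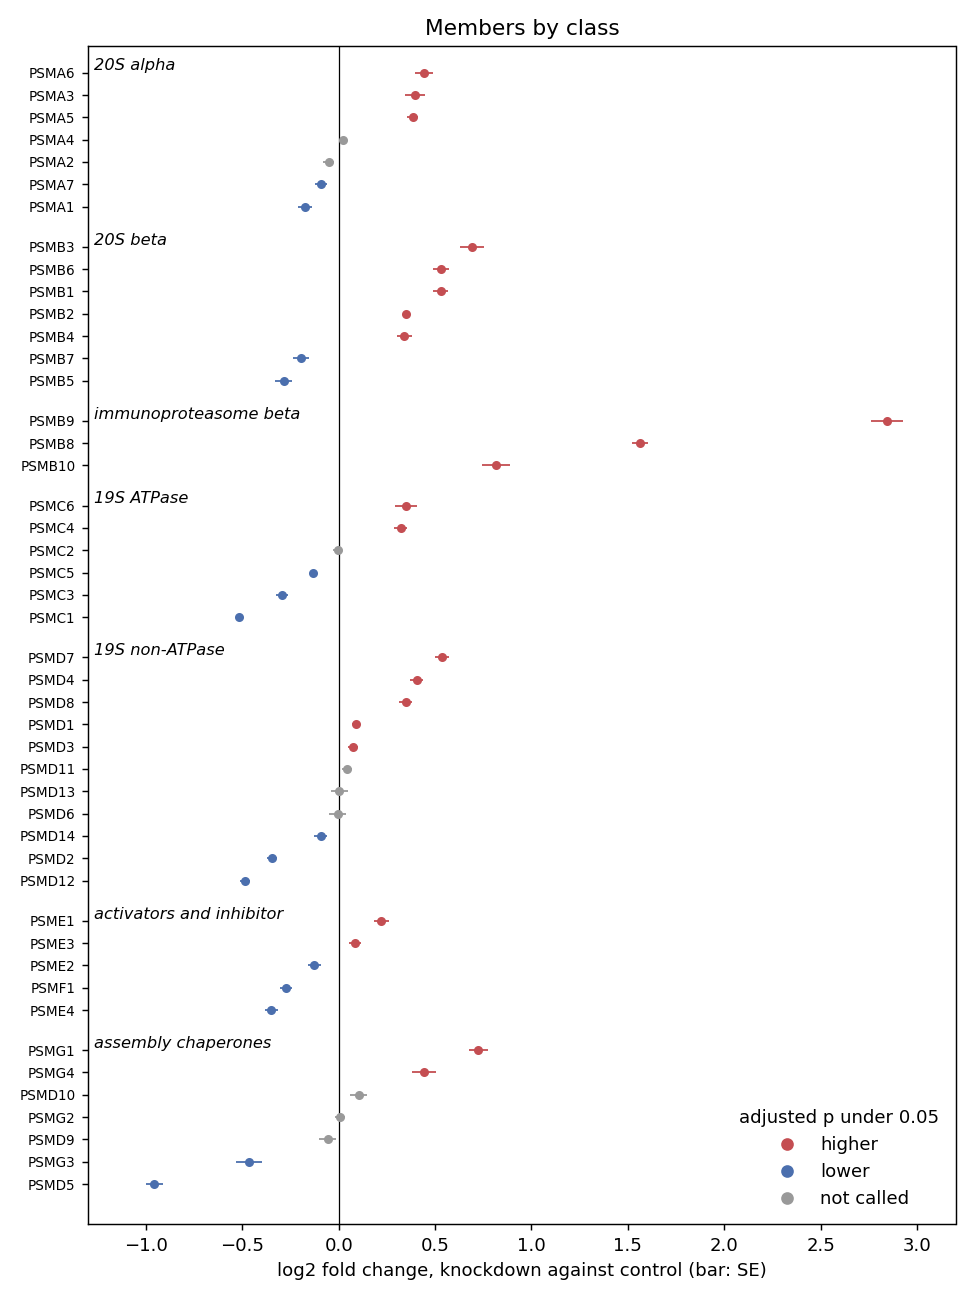
Log2 fold change of each of the 46 members, knockdown against control, grouped by class, with bars of 1 SE and colour by call. The 3 immunoproteasome subunits lie at 0.82 to 2.85, and the other 43 members between -0.96 and 0.72.

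The immunoproteasome subunits all rose, and theirs were the 3 largest rises among the members. With the median shift of the 50 nearest genes taken out, PSMG1 (1.11) and PSMB3 (0.85) stood above PSMB10 (0.73). PSMB9 (ENSG00000240065.8, chr6:32844136-32859585, plus strand) stood at 2.24, 2.86, 2.37 and 2.33 CPM in control replicates 1 to 4 and at 17.3, 18.1, 18.5 and 16.8 CPM in knockdown replicates 1 to 4. Its counts were 49 to 63 in control and 363 to 441 in knockdown, so the control level rests on few reads. The groups were far apart, a 7.20-fold rise in mean CPM (log2 fold change 2.85 ± 0.08, SE; adjusted p = 1.89e-19).

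PSMB8 (ENSG00000204264.12, chr6:32840717-32844703, minus strand) stood at 15.1, 15.6, 15.2 and 14.7 CPM in control and at 44.1, 42.1, 47.6 and 45.7 CPM in knockdown. Every knockdown library was above every control library, and the mean rose 2.96-fold (log2 fold change 1.56 ± 0.04, SE; adjusted p = 7.72e-19). PSMB10 (ENSG00000205220.12, chr16:67934502-67937087, minus strand) stood at 23.5, 20.2, 23.3 and 23.2 CPM in control and at 39.3, 36.1, 42.6 and 41.3 CPM in knockdown. It was the highest of the 3 in control and rose least, 1.77-fold (log2 fold change 0.82 ± 0.07, SE; adjusted p = 4.16e-12). All 3 kept their call in each of the alternative analyses run, with adjusted p at most 1.78e-08.

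The constitutive partners did not move as a unit. PSMB5 stood at 180, 172, 187 and 168 CPM in control and at 147, 136, 149 and 148 CPM in knockdown, with no overlap, and fell to 82.1% of control (log2 fold change -0.29 ± 0.05, SE; adjusted p = 4.37e-07). PSMB7 stood at 164, 166, 174 and 165 CPM in control and at 150, 137, 153 and 146 CPM in knockdown, and fell to 87.4% (-0.20 ± 0.04, SE; adjusted p = 5.87e-05). PSMB6 went the other way, from 55.6, 52.2, 55.7 and 51.4 CPM to 78.8, 73.3, 78.3 and 80.3 CPM, a 1.45-fold rise (log2 fold change 0.53 ± 0.04, SE; adjusted p = 4.95e-11). When the median shift of the 50 nearest genes was taken out, the PSMB5 call was lost (-0.08, adjusted p = 0.0895) and PSMB7 changed sign (0.13).

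**Figure D2:**
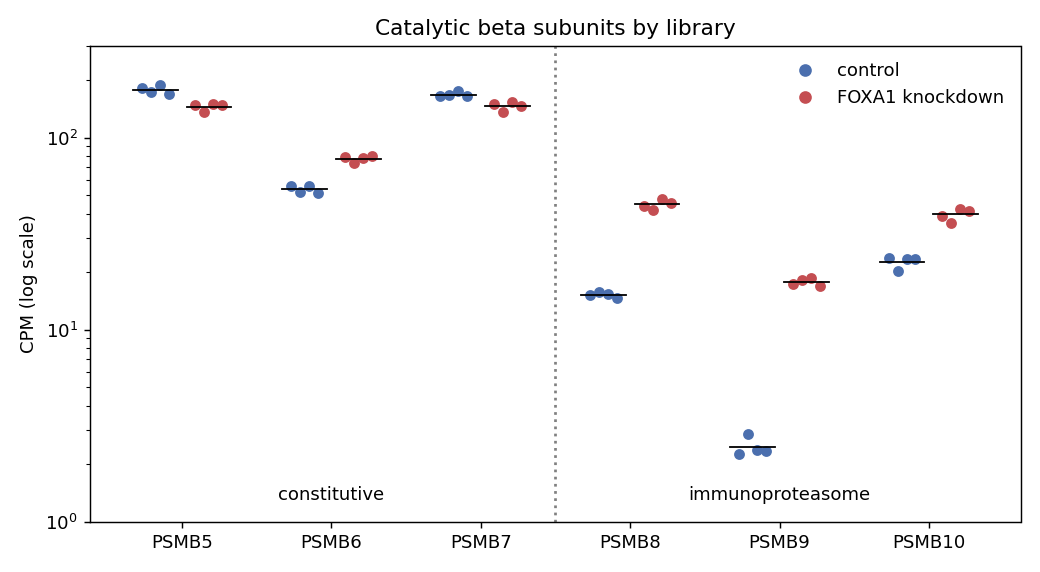
CPM of the catalytic beta subunits in each library on a log scale, with lines at the group means. The immunoproteasome subunits sit below their constitutive partners in every library, and the distance is smaller in the knockdown libraries.

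Set against the constitutive partner within each library, and per base of transcript, the immunoproteasome form gained in all 3 pairs. PSMB8 was 9.88% ± 0.46 of PSMB5 in control (9.40 to 10.4) and 35.6% ± 0.86 in knockdown (34.6 to 36.7). PSMB9 was 4.99% ± 0.69 of PSMB6 in control (4.39 to 5.97) and 24.8% ± 1.82 in knockdown (22.8 to 26.8). PSMB10 was 10.8% ± 0.77 of PSMB7 in control (9.79 to 11.5) and 21.9% ± 0.83 in knockdown (21.1 to 22.8). The ratios therefore grew 3.60-fold, 4.96-fold and 2.02-fold, without overlap of the groups, and the constitutive RNA stayed the larger part in each pair. The log2 ratio changed by 1.85 ± 0.04, 2.31 ± 0.11 and 1.02 ± 0.06 (SE, n = 4 each). With the median shift of the 50 nearest genes taken out of each gene, an alternative added after seeing the data, the changes were 1.43, 1.98 and 0.60. These ratios are descriptions and were not tested.

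**Figure D3:**
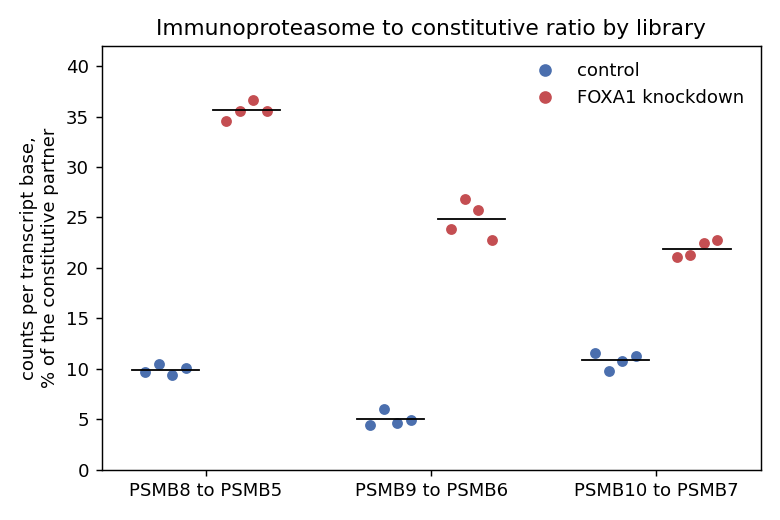
Level of each immunoproteasome subunit per base of transcript, as a percent of its constitutive partner, in each library with group means. All knockdown libraries lie above all control libraries, at 21.1% to 36.7% against 4.39% to 11.5%.

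PSMB8, PSMB9, TAP1 and TAP2 lie side by side in the MHC class II region of chromosome 6. All 4 rose: TAP1 from 68.5 ± 2.62 to 149 ± 5.16 CPM (2.18-fold) and TAP2 from 96.3 ± 3.63 to 154 ± 4.28 CPM (1.60-fold). HLA-DOB, on the far side of TAP2, rose 3.81-fold from 1.496 ± 0.24 CPM, whereas HLA-DMA, on the other side of PSMB9, fell to 10.6% of 6.55 ± 0.72 CPM. The change was thus not in 1 direction across the region. Annotated exons of PSMB8 and PSMB9 overlap by 139 bases on opposite strands, and those of PSMB8 and its antisense gene PSMB8-AS1 by 618. PSMB8-AS1 itself averaged 0.76 CPM in control and 1.45 CPM in knockdown, far below PSMB8. TAP1 lies wholly inside the annotated span of PSMB9 on the opposite strand, with no shared exon. TAP2 shares 2064 exonic bases with an unnamed gene on its strand (ENSG00000250264, mean 293.9 counts). PSMB10 shares 644 exonic bases with an unnamed gene on its strand (ENSG00000261884, mean 64.5 counts). Whether the counting used strand is not given in the sources used here, so reads in these stretches could have gone to either gene.

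The 7 alpha subunits, which form the outer rings of the core, were mixed: 3 rose, 2 fell and 2 were not called, with a median log2 fold change of 0.02. PSMA6 rose most, from 142 ± 5.71 to 193 ± 10.1 CPM (1.36-fold), beside PSMA3 (1.32-fold) and PSMA5 (1.31-fold, or 0.38 as log2). PSMA6 shares 919 exonic bases with PRORP on its strand (mean 442 counts). PSMA1 fell to 88.5% and PSMA7 to 94.0%, and the PSMA7 groups overlapped (adjusted p = 0.0196). The PSMA7 call was lost with total-count or upper-quartile scaling and without knockdown replicate 2. PSMA2 (96.4% of control) and PSMA4 (1.02-fold) were not called.

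Of the 7 constitutive beta subunits 5 rose and 2 fell, with a median of 0.35, and none of the groups overlapped. PSMB3, a structural subunit without a proteolytic site, rose most: it stood at 45.2, 46.9, 49.96 and 48.9 CPM in control and at 79.4, 69.6, 83.0 and 76.6 CPM in knockdown, a 1.62-fold change (log2 0.69 ± 0.06, SE; adjusted p = 5.59e-12). The structural subunits PSMB1 (173 to 250 CPM, 1.44-fold), PSMB2 (1.28-fold) and PSMB4 (1.27-fold) rose as well. PSMB5 and PSMB7, described above, were the 2 that fell, both of them catalytic.

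In the ATPase ring of the 19S cap 2 of 6 subunits rose, 3 fell and 1 was not called, with a median of -0.07. PSMC1 fell most, from 280, 276, 275 and 280 CPM to 192, 191, 198 and 194 CPM (69.8% of control; log2 fold change -0.52 ± 0.01, SE; adjusted p = 9.86e-14). Its replicates lay within a few percent of each other, far inside the gap between the groups. PSMC1 shares 4671 exonic bases with NRDE2 on the opposite strand, and its processed pseudogene PSMC1P1 had 0 to 168 counts in control and 0 to 146 in knockdown, which could have drawn reads from it. PSMC1P1 averaged 4.66 ± 3.49 CPM in control and 3.94 ± 2.83 CPM in knockdown, and its part in the change of PSMC1 was not tested. PSMC3 fell to 81.6%, but turned to 0.25 with the neighbour shift removed. PSMC5 fell to 91.3%, a call lost with total-count scaling (-0.05) and with the neighbour shift removed (-0.002). PSMC4 rose 1.25-fold and PSMC6 1.27-fold, and PSMC2 stood at 99.6% of control without a call.

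Among the 11 non-ATPase subunits 5 rose, 3 fell and 3 were not called, with a median of 0.04. PSMD7, a scaffold partner of the deubiquitinase PSMD14, rose most, 1.45-fold from 54.0 ± 1.12 CPM. The ubiquitin receptor PSMD4 rose 1.32-fold, PSMD8 1.27-fold and PSMD1, a large scaffold subunit, 1.06-fold, although PSMD1 stood at -0.02 without a call once the neighbour shift was removed. PSMD12 fell most, from 156, 151, 145 and 154 CPM to 109, 109, 107 and 108 CPM (71.4% of control; log2 fold change -0.49 ± 0.03, SE; adjusted p = 4.63e-12). PSMD2, the other large scaffold subunit, fell to 78.6%, from 600 ± 17.8 to 472 ± 7.89 CPM. PSMD14 itself fell to 93.7% with overlapping groups, and its call was lost in 10 of 18 alternatives, among them those without knockdown replicate 2 or 4 or control replicate 1, 2 or 4. PSMD6, PSMD11 and PSMD13 lay between 99.6% and 103% of control and were not called.

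PSMD3 stood apart in level. Per kilobase of transcript it reached 415 CPM in control, 6.80 times the median of the other 16 subunits of the 19S cap, and it made up 12.9% of all member counts in control and 13.2% in knockdown. Its gene (chr17:39980797-39997960) lies 0.25 Mb from ERBB2, the amplified gene of this line. PSMD3 stood at 896, 874, 932 and 882 CPM in control and at 952, 913, 954 and 958 CPM in knockdown. The groups overlapped, the mean was 1.05-fold higher (log2 fold change 0.08 ± 0.03, SE; adjusted p = 0.0355), and the call was lost in 9 of 18 alternatives, among them those without knockdown replicate 1, 3 or 4 or control replicate 1, 2 or 4. The 50 nearest tested genes had a median log2 fold change of -0.61, while PSMD3 stayed near its control level. PSMB3, 0.92 Mb from ERBB2, had no such excess: it stood at 61.8 CPM per kilobase, below the beta median of 137.

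Of the 4 activators and the inhibitor 2 rose and 3 fell, with a median of -0.13. PSME1, the PA28 alpha subunit, stood at 131, 136, 141 and 129 CPM in control and at 159, 148, 160 and 159 CPM in knockdown, and rose 1.17-fold (log2 fold change 0.22 ± 0.04, SE; adjusted p = 1.19e-05). Its partner PSME2, which lies next to it on chromosome 14, stood at 126, 127, 129 and 129 CPM in control and at 119, 109, 119 and 121 CPM in knockdown, and fell to 91.7% (-0.13 ± 0.03, SE; adjusted p = 0.00405). The opposite directions depended on the analysis: the PSME2 call was lost with total-count scaling (-0.04) and upper-quartile scaling (-0.07). With the neighbour shift removed PSME2 turned positive (0.08, not called) beside PSME1 at 0.42.

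PSME3, the nuclear PA28 gamma, stood at 125, 129, 133 and 128 CPM in control and at 137, 135, 132 and 143 CPM in knockdown, with overlap (1.06-fold, adjusted p = 0.0361), and its call was lost in 9 of 18 alternatives, among them those without knockdown replicate 1 or 4 or control replicate 1, 2 or 4. PSME4 stood at 159, 169, 164 and 165 CPM in control and at 124, 135, 126 and 131 CPM in knockdown, and fell to 78.4% (-0.35 ± 0.03, SE; adjusted p = 3.87e-09). The inhibitor PSMF1 stood at 148, 152, 157 and 147 CPM in control and at 121, 124, 125 and 130 CPM in knockdown, and fell to 82.7% (-0.27 ± 0.03, SE; adjusted p = 2.44e-07). Both PSME4 and PSMF1 were lower in every knockdown library than in any control library.

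The assembly chaperones held the largest fall. PSMD5, which holds a part of the 19S base during assembly and also restrains the finished particle, stood at 109, 106, 104 and 103 CPM in control and at 53.5, 54.7, 50.8 and 58.0 CPM in knockdown. The mean fell to 51.5% without overlap (log2 fold change -0.96 ± 0.04, SE; adjusted p = 1.72e-16). PSMG3 stood at 62.7, 56.1, 60.9 and 65.5 CPM in control and at 42.7, 41.99, 48.9 and 44.4 CPM in knockdown, and fell to 72.6% (-0.47 ± 0.07, SE; adjusted p = 2.68e-08).

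PSMG1, which acts with PSMG2 on the alpha ring, stood at 39.3, 40.7, 43.4 and 42.2 CPM in control and at 70.2, 63.3, 71.1 and 68.8 CPM in knockdown, a 1.65-fold rise (log2 fold change 0.72 ± 0.05, SE; adjusted p = 4.88e-13). PSMG2 was level at 45.6 ± 0.78 and 45.8 ± 1.58 CPM and was not called. PSMG4, the partner of PSMG3, rose 1.36-fold from 11.5 ± 0.80 CPM (log2 fold change 0.44), a call lost with the neighbour shift removed (0.14, adjusted p = 0.0694). PSMG4 had 226 to 382 counts per library and shares 1388 exonic bases with SLC22A23 on the opposite strand (mean 566 counts). The difference within each of these chaperone pairs was not tested. PSMD9 and PSMD10 were not called, and the 7 chaperones had a median of 0.01.

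Summed over all 46 members, CPM was 6958 ± 76.7 in control and 7135 ± 144 in knockdown, with overlap. By class the summed CPM was 1.18 times control for the constitutive beta subunits, 1.07 for the alpha subunits, 1.01 for the 19S non-ATPase subunits (with overlap), 0.92 for the ATPases, 0.94 for activators and inhibitor and 0.89 for chaperones. The 3 immunoproteasome subunits together stood at 2.55 times control, from 40.2 ± 1.05 to 102 ± 5.26 CPM. As a share of all counts, without TMM scaling, the members took 0.675% ± 0.0048 in control and 0.733% ± 0.010 in knockdown, without overlap. Whether the groups overlapped in the total thus depended on the scaling. On that scale the alpha sum was 1.13 and the beta sum 1.246 times control. The 19S non-ATPase sum was 1.065 times control without overlap, while the sum of activators and inhibitor overlapped (0.996). These sums are descriptions and were not tested.

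Each member was also set beside the median of its 50 nearest tested genes. Those medians ran from -0.61 (PSMD3) to 0.37 (PSMD10), and 30 of 46 members moved the way of their neighbours. The share of all tested genes that did so was not computed, so this count is a description only. With the shift taken out of the knockdown libraries, 75.8% of all genes tested were called in either direction. Of the 46 members 28 were called higher and 12 lower, and 11 changed sign. The alpha subunits were then 6 higher and 1 lower, and the beta subunits 6 higher and none lower. The ATPases were 4 higher and 1 lower, and the chaperones 1 higher and 4 lower. The immunoproteasome subunits (2.64, 1.35 and 0.73 for PSMB9, PSMB8 and PSMB10), PSMG1 (1.11) and PSMD5 (-0.77) kept their direction and call. PSMC3 (0.25) and PSMA1 (0.14), both called lower without it, became higher, and the fall of PSMD12 shrank to -0.08. What the neighbours' shifts come from was not tested.

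**Figure D4:**
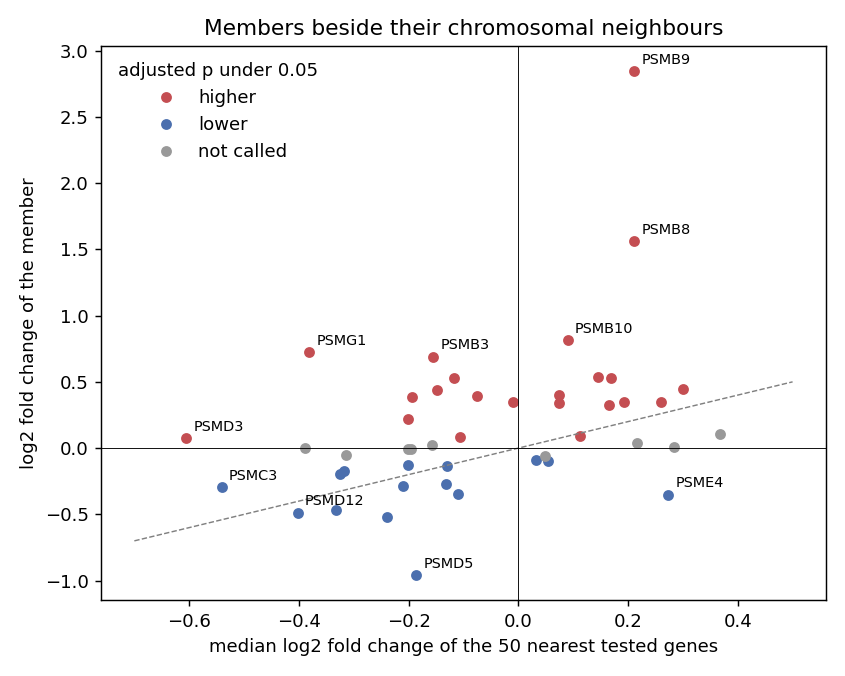
Log2 fold change of each member against the median log2 fold change of its 50 nearest tested genes, with a dashed line where both are equal. PSMB9, PSMB8, PSMG1 and PSMD3 lie above the line, and PSMD5 and PSME4 (neighbours at 0.27) below it.

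Of 13 proteasome partners outside the symbol rule 5 rose and 5 fell (39.4% and 37.7% of all genes tested), with a median of 0.02. POMP, the chaperone of 20S maturation, fell to 74.8% of control, from 85.6 ± 2.13 to 64.0 ± 3.82 CPM, but turned to 0.15 with the neighbour shift removed. The ubiquitin receptor ADRM1 was not called (165 ± 10.5 and 167 ± 4.47 CPM), and the small cap subunit SEM1 rose 1.09-fold, a call lost without knockdown replicate 1 (adjusted p = 0.0611). The largest changes were falls of PAAF1, an inhibitor of 19S assembly with the core (65.3%), and UCHL5, the deubiquitinase bound to ADRM1 (69.0%).

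Among 12 genes of the transcriptional control of the proteasome 2 rose and 8 fell, with a median of -0.32. For this list and the next, the shares over all genes tested are 39.4% higher and 37.7% lower. NFE2L1 fell from 165 ± 2.76 to 112 ± 2.496 CPM (67.9%; adjusted p = 1.4e-13), while NFE2L2 was not called (74.1 ± 7.22 and 76.6 ± 2.80 CPM). NGLY1 and DDI2, which process the NFE2L1 protein, fell by 0.51 and 0.24 on the log2 scale. Of the CCAAT-binding subunits NFYC rose 1.11-fold, and the other two had the largest changes of the list, in opposite directions: NFYB fell to 31.3% (128 ± 9.08 to 40.0 ± 3.43 CPM) and NFYA rose 2.10-fold (24.1 ± 0.75 to 50.6 ± 1.32 CPM). Of 14 genes of ubiquitin supply and shuttling 6 rose and 6 fell (median -0.003). The polyubiquitin gene UBB rose 2.05-fold, from 363 ± 13.8 to 744 ± 13.2 CPM, and NPLOC4, a cofactor of the unfoldase VCP, fell to 59.8%.

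Of 16 MHC class I presentation genes, which use the peptides that proteasomes make, 12 rose and 2 fell. Across all genes tested 39.4% were called higher and 37.7% lower. The list's median was 0.62, against 0.02 for all genes tested. The 2 that fell were CALR, to 71.5% of control, and PDIA3, to 74.3%. HLA-C rose 4.95-fold (16.1 ± 1.16 to 79.8 ± 1.91 CPM) and HLA-B 4.80-fold (7.70 ± 0.79 to 36.9 ± 1.41 CPM), and since these genes share near-identical sequence the split of reads between them is uncertain. Among the regulators of this pathway NLRC5, a transactivator of class I genes, rose 4.65-fold on 12 to 23 counts in control and 65 to 96 in knockdown. IRF1 rose 1.71-fold from 28.8 ± 1.896 CPM, but its neighbours had a median of 1.11 and its sign turned with that shift removed (-0.33).

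Of 20 interferon response genes 16 passed the filter, 11 rose and 3 fell, where 39.4% of all genes tested were called higher and 37.7% lower. The list's median was 0.90, against 0.02 for all genes tested. IFI6 rose from 4.03 ± 0.60 to 114 ± 3.71 CPM, 28.3-fold. HERC5 had 0 to 3 counts in each control library, at or under the floor of 3 counts used for an undetected gene, and 505 to 683 in the knockdown libraries, at least 198-fold higher. The list's median is 0.90 also with HERC5 at that bound. BST2 fell to 7.56% of control, from 3.74 ± 0.25 to 0.28 ± 0.04 CPM. IRF7 (72.4%) and STAT2 (85.2%) fell as well, and the IRF7 call was lost with the neighbour shift removed (-0.10, adjusted p = 0.444). Both lists were chosen with results of these data known, so their counts are no independent evidence. Whether any of these genes had a part in the rise of PSMB8, PSMB9 and PSMB10 was not tested.

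PSMB8, PSMB9 and PSMB10 are also high in leukocytes. Of 8 leukocyte markers CD3E and MS4A1 had no row, PTPRC had at most 3 counts per library, and the summed level was 5.95 to 7.58 CPM in control and lower, 1.897 to 2.98 CPM, in knockdown. Of 7 fibroblast markers LUM had no row, and the summed level of the other 6 went from 5.27 to 6.98 CPM in control to 10.8 to 12.0 CPM in knockdown. COL1A2, DCN and PDGFRA had at most 3 counts per library. COL3A1, with 0 to 1 counts in each control library and 90 to 104 in knockdown (at least 31.7-fold higher), and PDGFRB (6.90-fold) rose, while COL1A1 fell to 80.4%. The 3 endothelial markers summed to 20.7 to 22.1 CPM in control and 19.7 to 22.4 CPM in knockdown, where VWF fell to 16.2% and CDH5, most of the sum, rose 1.246-fold. The part of fibroblast-type RNA in any member's change was not tested.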

How the data were processed

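RNA of 4 control and 4 FOXA1 knockdown SKBR3 libraries was sequenced as paired-end reads on an Illumina NextSeq instrument, per the labels' protocols. The authors deposited 1 table of raw counts per gene, whole numbers under Ensembl identifiers with a symbol column. The submitters' processing notes name FastQC, Salmon 1.9, DESeq2 3.16 and hg38, with no role or order. The counter, annotation and use of strand are not given in the sources used here. Salmon estimates counts per transcript, so if it made the table, the whole numbers are rounded estimates. The table lists genes with at least 2 counts in all, and PSMA8 and PSMB11, tissue-specific core subunits, have no row in it. The 46 members and all gene lists were chosen with earlier results of these data known.

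Groups came from the sample titles. Counts were fitted in R 4.3.3 with edgeR 4.0.16 (filterByExpr with a minimum of 10 counts and a total of 15, TMM, robust quasi-likelihood test) on group alone, with Benjamini-Hochberg adjustment over 16430 genes. CPM uses TMM-scaled totals. Each SE was computed over the 8 libraries' log2 CPM values, adding 0.5 to every count. On simulated counts for this comparison, 195 of 200 changed genes were recovered with the right sign. Those genes all had a mean of at least 50 counts and changed by at least 0.5 on the log2 scale. All other genes were left unchanged, and every gene had the common dispersion. The simulation therefore does not cover smaller changes, or a comparison in which 77.1% of genes were called. The common dispersion gave a biological coefficient of variation of 4.56%. Positions, exon lengths and neighbours are from GENCODE 29 on GRCh38 (all 46 members matched, 96.5% of identifiers). The 50 nearest tested genes gave each gene's neighbour shift, and the fit with it removed offset the knockdown libraries gene by gene. Promoters are from RefSeq's table. Named members are the catalytic subunits, activators and inhibitor, the 5 largest rises and falls with a mean of at least 50 counts, and the largest change of each class. Added to these are PSMD3 and the genes named in passing, chosen after their values were seen. From the lists, key regulators and the 2 largest changes are named. NGLY1, DDI2, CALR, PDIA3, BST2, IRF7, STAT2, HLA-DOB and HLA-DMA were added after their values were seen. One list gene that the rule would also name is not reported here. Alternatives were other scalings, filters and tools (DESeq2 1.42.0, limma 3.58.1), a stricter threshold of 0.01, a replicate block, the neighbour shift removed and each library left out. Figures used Python 3.11.15 and matplotlib 3.10.9.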

Additional observations from a re-analysis of the deposited data

Results flagged for a closer look

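Dixon's ratio, the gap between the most distant library and its nearest neighbour over the range of the 4 libraries, was computed for 100 groups of values, and 8 passed the 95% critical value for 4 libraries, where chance gives about 5 (1 in 20). Knockdown replicate 2 was the low library for PSME1 (147.5 CPM against 158.5 to 159.5, ratio 0.924), PSMD3 (912.6 against 951.8 to 957.9, 0.866), PSMB1 (235.4 against 252.4 to 255.6, 0.842) and PSME2 (109.1 against 118.8 to 120.7, 0.835). It has the highest TMM factor, 1.04. Knockdown replicate 1 was high for PSMA3 (180.3 CPM against 160.8 to 163.9, ratio 0.838). In control, replicate 2 was low for PSMB10 (20.2 CPM against 23.18 to 23.54, ratio 0.894) and PSMG4 (10.26 against 11.68 to 11.95, ratio 0.840), and replicate 3 was high for PSMB7 (174.4 against 164.3 to 166.0, ratio 0.835). Leaving out the library concerned changed neither the call nor the sign of the gene in any of the 8 cases.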

How the results depend on the processing

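Counts of called members ranged from 19 to 28 higher and from 11 to 15 lower over the alternatives, and with a library left out from 20 to 22 and from 13 to 15. Of 828 combinations of a member with an alternative, 747 kept direction and side of the threshold, 37 lost the call, 11 gained one and 33 changed sign. In 25 members nothing changed. Removing the neighbour shift reversed PSMA1 (0.14), PSMA2 (0.26), PSMB7 (0.13), PSMC2 (0.20), PSMC3 (0.25), PSMD1 (-0.022), PSMD6 (0.19), PSMD10 (-0.27), PSMD11 (-0.18), PSME2 (0.076), PSMG2 (-0.28), POMP (0.15), NFE2L2 (-0.078) and IRF1 (-0.33). Total-count scaling reversed PSMA2 (0.030), PSMC2 (0.078), PSMD6 (0.078) and PSMD9 (0.027), and upper-quartile scaling the same 4 (0.006, 0.054, 0.054 and 0.002). Total-count scaling moved the median of all genes by 0.08. A filter at a mean of 50 counts reversed PSMC2 (0.008) and PSMD6 (0.008). With a library left out, sign changes occurred for PSMC2 (-0.024 to 0.003), PSMD6 (-0.035 to 0.023), PSMD13 (-0.024 to 0.027), PSMG2 (-0.008 to 0.024), ADRM1 (-0.012 to 0.049) and NFE2L2 (-0.019 to 0.083), none of them called. Beyond the offset itself, the cause of these changes was not tested. With 5 counts added or a library left out, the log2 ratio change ran from 1.83 to 1.88 for PSMB8 to PSMB5, 2.21 to 2.40 for PSMB9 to PSMB6 and 0.97 to 1.05 for PSMB10 to PSMB7. With the neighbour shift removed, added after seeing the data, it was 1.43, 1.98 and 0.60. With a replicate block 20 members were higher and 14 lower, and 12453 of 16430 genes were called against 12675; libraries with the same number correlated at -0.03 to 0.06, so the number was not taken to pair them. Depth limits PSMB9 in control (49 counts in the lowest library) and NLRC5, and a level cannot show whether protein or assembled particle changed.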
